A study of Mus musculus with 4 samples.

Results

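The stem-like stromal cells of the vas deferens were 1 of the 34 cell populations that the submitters named among the single cells of the mouse epididymis and vas deferens. They were taken as that label in the deposited table of cells, with no new clustering, and made up 6.18% of 8880 cells and 24.7% of the 2222 stromal cells. The vas deferens library held 404 of them with at least 1000 unique molecular identifiers (UMIs) and 113 with fewer, together 14.7% of its 3506 cells and 50.9% of its 1015 stromal cells. The corpus library held 16, the cauda library 11 and the caput library 5.

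The tissue came from male mice of the inbred strain FVB/NJ, 4 animals of 10 to 12 weeks, and the labels name no treatment or altered allele. Their 8 epididymides were cut into caput, corpus, cauda and vas deferens, the 8 pieces of a segment were pooled, washed to deplete sperm and dissociated with collagenase and trypsin. Transcript 3′ ends were sequenced by droplet barcoding (10x Genomics, V2 chemistry) in 1 library for each pool, so every group here is 1 library and no animal can be told from another. The values are therefore descriptions without replicates. Each 95% interval covers counting error only, and no test was run.

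The vas deferens is the muscular duct that carries sperm from the epididymis to the urethra. Its stroma of fibroblasts and myofibroblasts lies around the epithelium and within the muscle coat, where it makes the extracellular matrix and signals to its neighbours. Among the markers by which the submitters called these cells stem-like, *Lgr5* encodes a receptor for R-spondins that strengthens Wnt signalling and marks stem cells in epithelia such as the intestine. *Angpt1* encodes angiopoietin 1, a ligand of the endothelial receptor Tie2, and *Tspan8* a tetraspanin of the cell surface.

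In the vas deferens library the stem-like cells carried 1088175 UMIs, from 270 to 8147 a cell with a median of 2025 and a median of 948 genes. The other stromal populations of that library were 213 secretory fibroblasts (655288 UMIs, median 3129), 209 myofibroblasts (608515 UMIs, median 2930), and the fibroblast subclusters C2, with 39 cells (122395 UMIs, median 3125), and C4, with 37 cells (34795 UMIs, median 556). Levels are given as UMIs of a gene per 1000000 UMIs of a population (UPM). With 3 UMIs as the floor, a count of 0 allowed up to 2.76 UPM in the stem-like cells, 4.58 in the secretory fibroblasts, 4.93 in the myofibroblasts, 24.5 in C2 and 86.2 in C4. Over the 4 libraries, depth ranged from 4408989 to 10744928 UMIs. Among the stem-like cells of the vas deferens, 6 were ranked as doublets and 5 shared a barcode with a cell of another library.

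The label was set against markers of the other cells that the tissue holds. All 13 general fibroblast genes on the list were detected in the stem-like cells and took 4.60% of their UMIs, against 6.01% in secretory fibroblasts, 4.42% in C2, 0.94% in C4 and 0.69% in myofibroblasts. *Gsn*, which encodes the actin-severing protein gelsolin, stood at 29479 UPM, and *Dcn*, for the proteoglycan decorin, at 9549 UPM. The 12 endothelial genes summed to 50.5 UPM, against 4920 in endothelial cells, with *Icam2*, *Cldn5* and *Vwf* at 0. The 12 immune genes summed to 199 UPM, against 31144 in immune cells, with *Laptm5* and *Cd3g* at 0. The 8 smooth muscle genes summed to 548 UPM, against 61499 in muscle cells. The 12 epithelial genes summed to 248 UPM, against 5284 in principal and 13430 in basal cells, and the 10 genes of vas deferens principal cells to 760 UPM, against 69848 in principal cells. These sums place the population among fibroblasts, with little RNA of the other types. Of the 10 pericyte genes, 9 were detected, for 1067 UPM in all, of which 633 were *Pdgfrb*, and *Higd1b* was at 0.

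Genes of the cell cycle and of pluripotency gave few UMIs, and 13 of the 19 on that list were detected. *Ccnb1*, *Ccnb2*, *Ccna2*, *Cdk1* and *Mcm2*, which drive division and the copying of DNA, had 0 UMIs among the 1088175, as had *Pou5f1*, the factor of pluripotent cells. *Mki67* and *Top2a*, markers of dividing cells, had 1 UMI each, while *Pcna*, a clamp for DNA synthesis and repair, had 139. By contrast *Klf4*, a transcription factor that serves in reprogramming and is also an immediate early gene, was at 3895 UPM and *Myc* at 175 UPM.

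All 3 markers were highest in the stem-like cells among the stromal populations of the vas deferens. The submitters found these markers in the same cells, so their rank describes the population and does not test it. *Lgr5* had 419 UMIs, or 385 UPM (349 to 424), in the stem-like cells. It stood at 24.4 UPM (14.0 to 39.7) in secretory fibroblasts, at 164 UPM (134 to 200) in myofibroblasts, at 24.5 UPM (5.05 to 71.6, 3 UMIs) in C2 and at 201 UPM (80.9 to 415, 7 UMIs) in C4. The ratio to secretory fibroblasts was thus 15.8 (9.60 to 27.8), whereas that to myofibroblasts was 2.34 (1.88 to 2.94) and that to C4 1.91 (0.92 to 4.79). The interval of the ratio to C4 included 1, and on this scale *Lgr5* was the one marker of the 3 without a 2-fold margin over each other stromal population. That depended on the setting, since the 7 UMIs of C4 were few. The ratio of *Lgr5* to C4 was 1.87 as a mean over cells and 1.63 without called doublets, but 2.11 with the deposited size factors, 2.21 without ribosomal and mitochondrial genes in the totals, 2.88 after centring, 7.17 in cells of at least 1000 UMIs and 10.3 over all 4 libraries.

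*Angpt1* had 618 UMIs, or 568 UPM (524 to 615), in the stem-like cells. The other stromal populations held 38.2 UPM (secretory fibroblasts), 90.4 UPM (myofibroblasts), 114 UPM (C2) and 28.7 UPM (C4, 1 UMI). *Angpt1* was thus 4.97 times (2.94 to 9.14) the level of C2, the next stromal population. *Tspan8* had 351 UMIs, or 323 UPM (290 to 358), against 29.0 UPM in secretory fibroblasts, 55.9 UPM in myofibroblasts, 8.17 UPM (1 UMI) in C2 and 57.5 UPM (2 UMIs) in C4. Its ratio to myofibroblasts was 5.77 (4.05 to 8.47). The ratio of *Tspan8* to C4 was 5.61 but rested on those 2 UMIs, and it was 3.19 with size factors, 2.22 as a mean over cells and 2.11 in cells of at least 1000 UMIs.

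Outside the stroma the markers parted. *Lgr5* had 8 UMIs in 1360 principal cells of the vas deferens (1.71 UPM) and 0 in 144 endothelial and 118 immune cells, and *Angpt1* likewise had 8 in principal cells and 0 in both of the others. In muscle *Angpt1* was at 63.4 UPM (17 UMIs) in a population of 230 cells and at 22.2 UPM (22 UMIs) in one of 207. *Lgr5* was at 0 and 9.06 UPM (9 UMIs) in the same muscle populations. *Tspan8* was at 183 UPM (171 to 196) over all principal cells and at 490 UPM (366 to 642) in a principal population of 100 vas deferens cells. *Tspan8* therefore marked the stem-like cells among stroma but not among all cells of the duct.

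**Figure D1:**
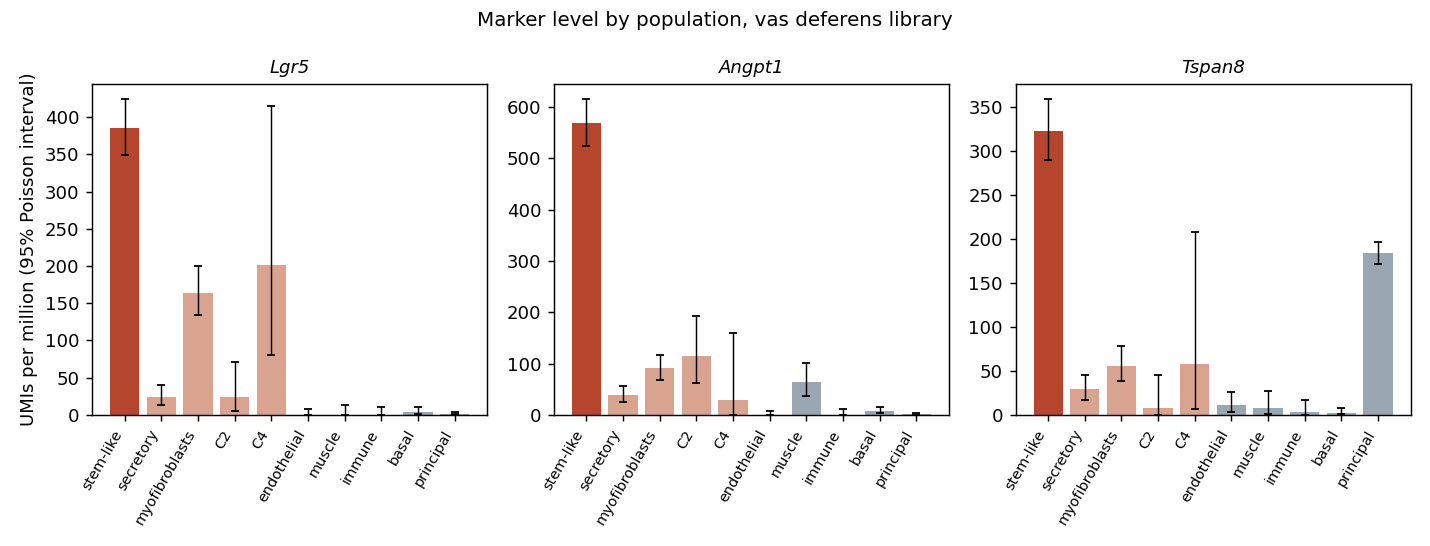
Level of *Lgr5*, *Angpt1* and *Tspan8* (y axis, UPM, linear from 0) in populations of the vas deferens library, with 95% Poisson intervals for counting error. The stem-like cells are dark red, other stroma light red, other types grey, where immune and principal pool all their populations and the rest are single populations. The stem-like bar is the highest in each panel, at 385, 568 and 323 UPM, while *Tspan8* is also at 183 UPM in principal cells.

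After each cell was thinned to 1000 UMIs, which left out the 113 shallower cells, *Lgr5* was seen in 119 of 404 stem-like cells, or 29.5% (25.1 to 34.2), *Angpt1* in 33.7% (29.1 to 38.5) and *Tspan8* in 19.1% (15.3 to 23.2). Without thinning the shares were 43.7%, 50.5% and 26.5%. As a measure of free RNA, *Lgr5* was seen in 0.26% of 773 thinned principal cells (median depth before thinning 1287 UMIs, against 2025 in the stem-like cells) and in 0 of 120 endothelial cells, for which the limit of 3 counts is 2.50%. *Angpt1* was also seen in 0.26% of principal cells, so for both genes the stem-like shares were far above this background. Among vas deferens myofibroblasts thinned alike, *Lgr5* was seen in 14.1% (9.53 to 19.9) and *Angpt1* in 6.28% (3.29 to 10.7). For *Tspan8*, which principal cells express, immune cells served in place of principal cells and gave 0 of 91 (median depth 2368 UMIs), for which the limit is 3.30%.

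Most stem-like cells thus showed at most 1 marker at this depth. None of the 3 was seen in 41.8% of the cells, 1 in 36.9%, 2 in 18.6% and all 3 in 11 cells (2.72%). *Angpt1* was seen in 50 of the 119 cells with *Lgr5*, or 42.0% (33 to 51.4), and in 86 of the 285 cells without it, or 30.2% (24.9 to 35.9). *Tspan8* was seen in 25.2% (17.7 to 34) and 16.5% (12.4 to 21.3) of the same cells. The intervals overlapped for both. The difference for *Angpt1*, 11.8 percentage points, depended on the draw of UMIs, and it was 3.38 points with another random seed, 5.02 at 500 UMIs a cell and 19.6 at 2000. The markers also varied with the depth of the cell. *Lgr5* fell from 688 UPM (500 to 924) in the 113 cells under 1000 UMIs to 516, 342 and then 282 UPM (210 to 371) in the 38 cells of at least 4000, and *Angpt1* from 970 to 727, 525 and 398 UPM. *Tspan8* had no such order, at 313, 354, 330 and 265 UPM over the same bands. The part of cell size or state in this order was not tested.

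On GRCm38, which is the mm10 assembly the submitters used, *Lgr5* lies on chromosome 10 from 115450311 to 115587780 (minus strand), *Tspan8* on the same chromosome from 115816832 to 115849893 (plus strand) and *Angpt1* on chromosome 15 from 42424723 to 42676977 (minus strand), by the GENCODE annotation. All 3 are protein-coding. The promoters of *Tspan8* and of 3 genes for secreted proteins that were likewise at least 2-fold above each other stromal population (*Coch*, *Col15a1* and *Igfbp4*, described next) are shown because their transcripts set the population apart. Each runs from 250 bases before to 50 bases after a RefSeq start site (GRCm38.p6), with capitals for 4 short motifs searched on both strands: the TCF core CTTTGA, at which Wnt-responsive factors can bind, the GC box GGGCGG, the CCAAT box CCAAT and the TATA box TATAAA. The regions are chr10:115817034-115817333 for *Tspan8*, chr12:51593091-51593390 for *Coch*, chr4:47207762-47208061 for *Col15a1* and chr11:99040994-99041293 for *Igfbp4*, all on the plus strand.
Tspan8: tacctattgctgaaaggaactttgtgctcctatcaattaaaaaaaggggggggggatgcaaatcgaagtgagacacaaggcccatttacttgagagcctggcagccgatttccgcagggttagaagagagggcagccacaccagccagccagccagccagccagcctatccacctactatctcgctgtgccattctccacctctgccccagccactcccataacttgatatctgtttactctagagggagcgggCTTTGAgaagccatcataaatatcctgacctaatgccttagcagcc
Coch: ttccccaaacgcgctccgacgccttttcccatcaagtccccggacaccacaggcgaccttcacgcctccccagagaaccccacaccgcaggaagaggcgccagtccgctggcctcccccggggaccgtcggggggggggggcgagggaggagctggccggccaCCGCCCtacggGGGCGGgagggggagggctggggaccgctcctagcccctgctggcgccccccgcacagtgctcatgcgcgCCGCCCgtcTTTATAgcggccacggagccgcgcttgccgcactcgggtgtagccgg
Col15a1: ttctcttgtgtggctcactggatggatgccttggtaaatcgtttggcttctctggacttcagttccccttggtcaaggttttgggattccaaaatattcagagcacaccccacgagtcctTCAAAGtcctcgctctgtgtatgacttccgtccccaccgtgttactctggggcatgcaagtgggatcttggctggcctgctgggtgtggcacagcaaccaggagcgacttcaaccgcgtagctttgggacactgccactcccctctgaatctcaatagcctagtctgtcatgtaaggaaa
Igfbp4: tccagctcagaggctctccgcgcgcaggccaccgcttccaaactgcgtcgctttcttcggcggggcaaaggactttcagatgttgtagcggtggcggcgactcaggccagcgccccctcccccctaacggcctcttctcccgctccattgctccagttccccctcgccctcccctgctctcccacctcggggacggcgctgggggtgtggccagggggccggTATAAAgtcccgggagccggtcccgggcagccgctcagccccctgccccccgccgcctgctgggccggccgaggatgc
The *Tspan8* window held 1 TCF core, at position 4 relative to the start site. The *Col15a1* window held 1 on the other strand (TCAAAG), at position -130. *Igfbp4* had a TATA box at position -28, and *Coch* had 3 GC boxes and a TATA box on the other strand. Of the 16 genes described next, 10 had an entry in the table. The TCF core was in 4 of these 10 (40%), against 18.2% of all 27025 genes, the GC box in 5 (38.2% of all), the TATA box in 3 (15.7%) and the CCAAT box in 1 (41.1%). Across the 32851 promoters the TCF core was in 16.0%. A match of letters in such a window is a description and no sign of binding.

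Which genes set the stem-like cells apart within the stroma of the vas deferens was asked by counting those with at least 20 UMIs in them and at least 2 times the level of each of the 4 other stromal populations. Of 5833 genes, 16 passed (0.274%), and the 2 largest margins were those of *Tspan8* (5.61 times the next) and *Angpt1* (4.97). Their order depended on the setting, and in cells of at least 1000 UMIs the margin of *Angpt1* was 3.54 and that of *Tspan8* 2.11. Both are markers that the submitters found in these same cells, so their place is not independent evidence. *Col15a1*, a collagen of basement membrane zones, was at 456 UPM against 161 in myofibroblasts, the next. *Igfbp4*, which binds insulin-like growth factors, was at 1247 UPM against 564 in C2. *Coch*, for the matrix protein cochlin, was at 188 UPM against 87.1 in myofibroblasts, and *Col27a1*, a fibrillar collagen, at 174 UPM against 83.8. These 4 genes for secreted proteins had margins of 2.07 to 2.83.

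*Nrg1*, a ligand of ErbB receptors, was at 121 UPM in the stem-like cells against 57.5 UPM (2 UMIs) in C4, the next. *Scara5*, a ferritin receptor known from adventitial fibroblasts, was at 296 UPM against 115 UPM (4 UMIs) in C4. *Nupr1*, a stress-induced nuclear protein, was at 1435 UPM against 711 UPM in C2. The remaining genes were *Ak1*, *St3gal4*, *Prdm1*, *Emb*, *Lysmd2*, *Sapcd1* and *Gas7*, at 60.7 to 117 UPM. Each of them had 1 UMI (28.7 UPM) in C4. A count of 0 in C4 was raised to 86.2 UPM, so none of these genes would have passed without that UMI. *Fbxo2* (68.0 UPM) and *Stra6* (62.5 UPM), with 0 UMIs in C4, did not pass. C4 was the smallest population and its floor set the bar for low genes: with C4 left out, an alternative chosen after seeing the data, 77 genes passed, among them *Lgr5*, *Pdgfrb*, *Wnt4*, *Wnt9a*, *Notum* and *Apoe*.

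Against all 33 other populations of the 4 libraries, 35 of 5984 genes passed the same rule over the stem-like cells of all libraries (0.585%), and in 239 genes the stem-like cells were the highest of the 34. *Angpt1* was at 543 UPM against 59.5 UPM in a muscle population, a ratio of 9.14. *Lgr5* was at 367 UPM, and the next level, 42.8 UPM, came from 1 UMI in a basal population of 15 cells. Each population was summed over its libraries, so stroma of the vas deferens was pooled with stroma of the epididymis. Within the vas deferens library *Lgr5* was at 164 UPM in myofibroblasts and 201 UPM (7 UMIs) in C4. *Coch* was at 181 UPM against 24.8 in a clear cell population. *Tspan8* was not among the 35, since principal cells also carried it.

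Receptors and transcription factors were a second group among the 35. *Pdgfrb*, the receptor of platelet-derived growth factor B found on pericytes and fibroblasts, was at 609 UPM against 128 (ratio 4.76). Within the vas deferens library alone *Pdgfrb* was at 633 UPM, against 632 UPM (22 UMIs) in C4 and 248 UPM in myofibroblasts. *Prrx2*, a homeobox factor of limb and connective tissue, was at 557 UPM against 152 (3.66). *Nr2f1*, a nuclear receptor, was at 155 UPM against 42.9, *Osr1*, a factor of embryonic connective tissue and of the developing urogenital tract, at 154 UPM against 59.5, and *Klf4* at 3895 UPM against 1913. *Eln*, for elastin, was at 582 UPM against 261, and *Tppp3*, known from tendon sheath cells, at 275 UPM against 56.0. *Cdc6*, which licenses origins of DNA replication, was also among the 35, with 23 UMIs. In all of these but *Nr2f1*, *Osr1* and *Cdc6* the next population was stromal.

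The secretory fibroblasts, the other stromal population found mostly in the vas deferens, differed from the stem-like cells in many genes. Of 5964 genes with at least 20 UMIs in the higher of the 2 populations, 1385 (23.2%) were at least 2-fold higher in the stem-like cells and 379 (6.35%) at least 2-fold lower. The median log2 ratio was 0.41, and after centring on that median 796 genes were higher and 682 lower, so 78.5% of the calls were higher before centring and 53.9% after. *Lef1*, a transcription factor through which Wnt signals act, had 92 UMIs (84.5 UPM) in the stem-like cells and 1 UMI (1.53 UPM) in the secretory fibroblasts, a ratio of 55.4 (9.70 to 2212). *Sfrp2*, a secreted modulator of Wnt, was at 727 UPM against 33.6 UPM, a ratio of 21.7 (14.2 to 34.7). *Coch* was at 188 UPM against 4.58 (3 UMIs; 41.1, 13.9 to 201). *Hhip*, a decoy receptor for hedgehog proteins and a target of that pathway, was at 169 UPM against 4.58 (3 UMIs; 36.9, 12.4 to 181), and *Foxf1*, a forkhead factor of visceral mesenchyme, at 159 UPM against 4.58 (3 UMIs; 34.7, 11.7 to 170). The others of the 10 largest were *Cadm1*, *Nrep*, *Foxq1*, *Wfdc1* and *Fbxo2*, at 22.3 to 37.9 times. Ratios that rest on so few UMIs moved with the scaling and the choice of cells. Over 6 settings the log2 ratio ran from 2.95 to 5.89 for *Lef1*, from 3.20 to 5.72 for *Hhip*, from 2.82 to 5.32 for *Wfdc1* and from 4.72 to 7.19 for *Nrep*, while that of *Sfrp2* ran from 3.65 to 4.53.

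In the other direction, inflammatory signals led. *Tslp*, a cytokine of barrier tissues, was at 8.27 UPM in the stem-like cells against 1001 UPM, 121 times (63.4 to 266) lower. *Cxcl2*, which attracts neutrophils, was at 215 UPM against 9338 (43.4 times, 38.1 to 49.7), *Ptx3*, a soluble pattern recognition protein, at 91.9 UPM against 2478 (27.0 times) and *Cxcl1* at 767 UPM against 16893 (22.0 times). *Il6* was at 466 UPM against 7282, 15.6 times (14.3 to 17.2) lower. All 10 genes of the secretory set (*Ccl2*, *Ccl7*, *Cxcl1*, *Cxcl2*, *Cxcl12*, *Igf1*, *Il6*, *Ptx3*, *Tslp* and *Vcam1*) were at least 2-fold lower in the stem-like cells. That set was chosen on these same cells, so it is not independent evidence of its direction. Its sum was 0.77% of the UMIs in the stem-like cells, 8.33% in the secretory fibroblasts, 0.35% in myofibroblasts, 0.43% in C2 and 0.40% in C4. Of 22 chemokines and cytokines tested, 17 were lower and 2 higher, where 6.35% of all genes were lower and 23.2% higher. Their median log2 ratio was -2.68, against 0.41 over all genes. Of the 17 lower genes, *Ccl2*, *Ccl7*, *Cxcl1*, *Cxcl2*, *Cxcl12*, *Il6* and *Tslp* are also in the secretory set, so this list is not independent of that set. The 2 higher ones were *Cxcl14* (642 UPM against 198) and *Ccl8* (40.4 UPM against 18.3). The stem-like cells were still rich in some chemokines, with *Ccl2*, which attracts monocytes, at 2988 UPM and *Ccl7* at 2266 UPM.

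Genes of the Wnt pathway were followed by role. Of 5 Wnt ligands and R-spondins tested against the secretory fibroblasts, 4 were higher and 1 lower, where 23.2% of all genes were higher and 6.35% lower. *Wnt4* was at 164 UPM against 7.63 UPM, a ratio of 21.4 (9.02 to 66.8), *Wnt5a* at 47.8 UPM against 3.05 (2 UMIs), *Wnt6* at 54.2 UPM against 3.05 (2 UMIs) and *Wnt9a* at 22.1 UPM against 1.53 (1 UMI). The exception was *Rspo3*, an R-spondin and so a ligand of the Lgr5 receptor, at 70.8 UPM against 682 UPM, 9.64 times (7.56 to 12.4) lower. The receptor and this ligand were thus each highest in a different one of the 2 populations. Other receptors were sparse. *Lgr4* had 5 UMIs and *Lgr6* 0 in the stem-like cells, *Ryk* was at 93.7 UPM against 41.2, and *Fzd1* was lower, at 16.5 UPM against 65.6.

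Of 9 secreted or membrane antagonists of Wnt tested, 7 were higher and 2 lower (median log2 ratio 2.65 against 0.41). Of all genes in this comparison 23.2% were higher and 6.35% lower. *Dkk2*, which blocks the Lrp co-receptors, was at 99.2 UPM against 16.8 and *Wif1*, which binds Wnt proteins, at 70.8 UPM against 6.10. *Sostdc1* had 43 UMIs against 0, a ratio of 8.63 to the floor of 3 UMIs. *Sfrp1* went the other way, at 84.5 UPM against 273. Of 9 genes listed as transcriptional effectors or targets of the pathway, 6 were higher and none of the 9 lower (median 1.77): *Lef1*, *Tcf7l1*, *Tcf4*, *Znrf3*, *Nkd1* and *Lgr5* itself. Of these, *Lgr5* is a marker chosen on these same cells. Mouse *Tcf4* encodes an E protein, and the Wnt effector of like name is encoded by *Tcf7l2*, which was not called. *Axin2*, the target most used as a readout, had 7 UMIs in the stem-like cells and 3 in the secretory fibroblasts, below the 20 needed. The counts of higher genes in these 3 lists were 4, 6 to 7 and 6 to 7 over 6 ways of scaling or choosing cells.

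The same lists were counted against myofibroblasts, where 9.1% of all genes were higher and 11% lower. *Wnt4*, *Wnt6* and *Wnt9a* were higher and no ligand of the 5 was lower, with *Wnt4* 3.21 times (2.18 to 4.87) the myofibroblast level of 50.9 UPM. Of 9 antagonists 2 were higher and 5 lower: *Sfrp2* was at 727 UPM against 1494, *Wif1* at 70.8 UPM against 151 and *Sostdc1* at 39.5 UPM against 113, while *Dkk2* was higher, at 99.2 UPM against 11.5. Of the 9 targets *Lgr5* and *Myc* were higher and *Nkd1* lower, and *Lef1* was at 84.5 UPM against 105. The median log2 ratio of the targets was -0.15 and its sign changed with the scaling, to 0.20 with size factors. In C2 the antagonists *Dkk2* (572 UPM), *Dkk3* (172 UPM) and *Sostdc1* (302 UPM) were all higher than in the stem-like cells.

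**Figure D2:**
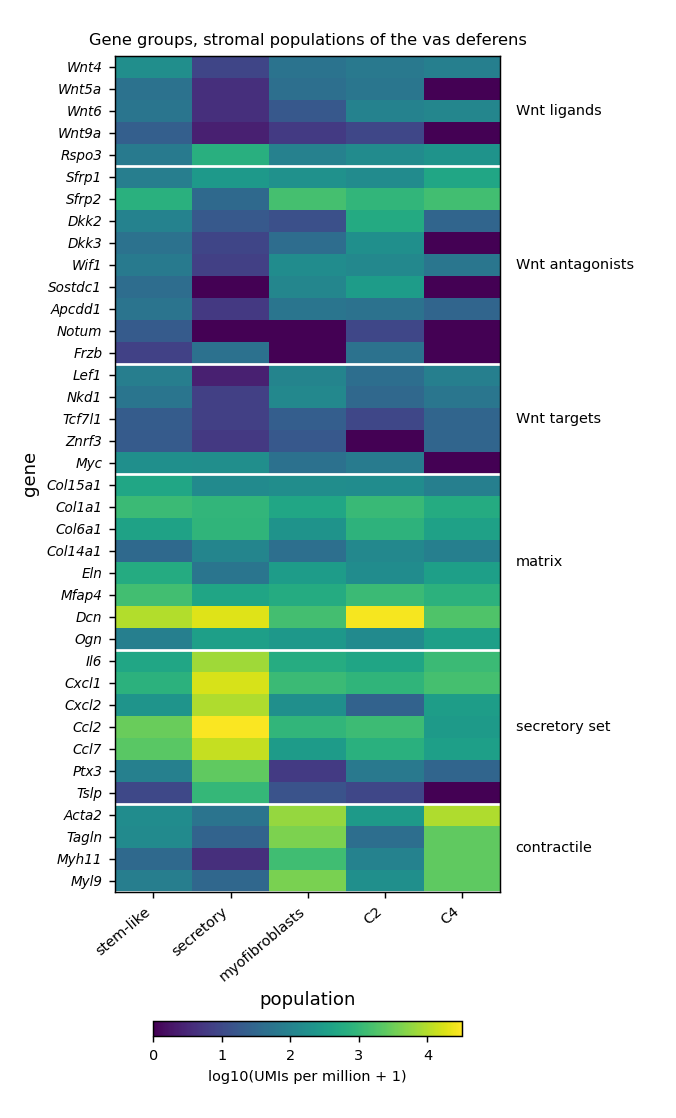
Levels of genes grouped by role (rows) in the 5 stromal populations of the vas deferens library (columns), as log10 of UPM plus 1. The stem-like column is brighter than the secretory column for *Wnt4*, *Lef1*, *Sfrp2* and *Eln* and darker for *Rspo3* and all 7 genes of the secretory set shown, while the contractile genes are brightest in myofibroblasts and C4.

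Matrix genes were followed by family. Of 22 collagen genes tested against the secretory fibroblasts, 6 were higher and 8 lower, against 23.2% and 6.35% of all genes. Among the higher ones were 4 collagens of basement membranes and their zones, *Col4a5* (405 UPM against 143), *Col4a6* (219 against 71.7), *Col15a1* (456 against 142) and *Col18a1* (210 against 44.3), with *Col13a1* and *Col23a1*. The basement membrane chains *Col4a1* and *Col4a2* were called in neither direction. The lower ones included *Col6a1* (385 UPM against 884), *Col6a2* (159 against 429) and *Col6a3* (71.7 against 278), the chains of the beaded filament collagen VI, and *Col14a1* (34 against 111). The fibrillar genes lay between, with *Col1a1* at 1183 UPM against 931 and *Col1a2* at 1855 UPM against 1503. The median of the 22 log2 ratios was 0.36, against 0.41 over all genes.

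Of 17 elastic fibre genes, 6 were higher and 2 lower, where 23.2% of all genes were higher and 6.35% lower. The median log2 ratio was 0.57, against 0.41 over all genes. *Eln* was at 590 UPM against 54.9 UPM, a ratio of 10.7 (7.67 to 15.5), and *Mfap4*, a microfibril protein that binds elastin, at 1355 UPM against 446, a ratio of 3.04 (2.68 to 3.46). *Fbln5*, which organises elastic fibres, was at 68.0 UPM against 15.3. Of 29 proteoglycans and glycoproteins 4 were higher and 13 lower (0 and 14 after centring), with *Dcn* at 9549 UPM against 19167, *Lum* at 505 UPM against 1366 and *Ogn* at 85.5 UPM against 353. Of 12 complement genes 5 were lower and 1 higher (9 and 1 after centring), with *C3* at 63.4 UPM against 325 and *C7* at 255 UPM against 1329. For both lists the share of lower genes before centring can be read against the 6.35% of all genes. After centring, 682 of all 5964 genes were lower and 796 higher. *Apoe*, a lipid carrier, was among the most abundant RNAs of the population, at 13923 UPM against 2640 UPM in secretory fibroblasts, 4212 in myofibroblasts, 5793 in C2 and 7674 in C4.

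Transcription factors of body plan and mesenchyme were the list with the most members past the threshold against the secretory fibroblasts. Of 40 tested, 21 were higher and 5 lower, and 15 and 7 after centring. Of all 5964 genes, 23.2% were higher and 6.35% lower before centring, and 796 and 682 genes after it. Among the higher were posterior Hox genes, *Hoxa10* (74.4 UPM against 25.9), *Hoxa11* (60.7 against 22.9), *Hoxd11* (72.6 against 22.9) and *Hoxd13* (23.0 against 7.63). *Osr1* was at 160 UPM against 12.2, *Foxf2* at 69.8 UPM against 4.58 (3 UMIs) and *Prrx2* at 575 UPM against 118. *Wt1*, a factor of the coelomic lining and gonad, was lower at 12.9 UPM against 118, as was *Meis2* at 39.5 UPM against 249. The 2 vas deferens populations thus differed in many factors that pattern the mesenchyme. Of 18 nuclear hormone receptors and their enzymes, 8 were higher, among them *Esr1*, an oestrogen receptor, at 29.4 UPM against 9.16, and 3 were lower, *Nr4a2*, *Hsd11b1* and *Aldh1a3*. Of 6 epithelial genes tested all were higher (median log2 ratio 2.92), though only 2 with the deposited size factors, and the list summed to 248 UPM against 41.2. The part of such RNA in the other differences was not tested.

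The myofibroblasts were found in every library, and their contractile genes separated them from the stem-like cells. Of 6053 genes tested within the vas deferens library, 551 (9.1%) were at least 2-fold higher in the stem-like cells and 668 (11%) at least 2-fold lower, with a median log2 ratio of -0.10. The balance depended on the scaling, with 643 higher and 569 lower after centring and 822 and 550 with the deposited size factors. All 18 contractile genes tested were lower (median log2 ratio -3.94). *Acta2*, smooth muscle actin, was at 151 UPM against 6187 UPM, 41.1 times (35.1 to 48.3) lower, *Myl9*, a myosin light chain, at 83.6 UPM against 3867 (46.2 times) and *Tagln*, transgelin, at 141 UPM against 4133 (29.4 times). *Pcp4l1*, with 2 UMIs against 103, had the largest ratio, 92.1 (24.9 to 771).

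Genes of fibroblasts lay on the other side. Of the 13 general fibroblast genes 10 were higher and none lower, with *Gsn* at 29479 UPM against 1606, a ratio of 18.4 (17.2 to 19.6), and *Dcn* at 9549 UPM against 1417. *Clec3b*, for tetranectin, was at 579 UPM against 23.0 UPM, a ratio of 25.2 (14.9 to 46.3) and a log2 ratio of 3.24 to 4.96 over the 6 settings. *Dpt*, for the matrix protein dermatopontin that marks adventitial fibroblasts, was at 280 UPM against 13.1 (21.3, 10.7 to 49.8), and *C7*, a terminal complement component, at 255 UPM against 13.1 (19.4, 9.73 to 45.5), with a log2 ratio of 2.46 to 4.95 over those settings. *Sult1e1*, an oestrogen sulfotransferase, had 116 UMIs against 0, a ratio of 21.6 to the floor of 3 UMIs, with a lower limit of 17.3. Markers of fibroblast progenitors described in other organs were tallied too, and 12 of 23 were higher and 5 lower, where 9.1% of all genes were higher and 11% lower. *Cd34* was at 248 UPM against 59.2, *Ly6a* at 571 UPM against 146, *Pdgfra* at 186 UPM against 62.4, *Pi16* at 88.2 UPM against 6.57 and *Cd248* at 39.5 UPM against 18.1, while *Procr* was lower at 59.7 UPM against 570. Against the secretory fibroblasts the same list gave 5 higher (*Pdgfrb*, *Pi16*, *Col15a1*, *Nes* and *Sema3c*) and 5 lower (*Nt5e*, *Alcam*, *Cd44*, *Procr* and *Gpx3*) of 21, where 23.2% of all genes were higher and 6.35% lower.

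Of 34 immediate early genes, whose RNAs rise within minutes of stress or of dissociation, 11 were higher than in myofibroblasts and none lower. Of all genes in that comparison 9.1% were higher and 11% lower. The 34 genes took 4.02% of the UMIs in the stem-like cells, 2.75% in myofibroblasts, 3.38% in secretory fibroblasts, 4.41% in C2 and 3.16% in C4. *Fos* was at 1890 UPM against 1338 in myofibroblasts and *Egr1* at 897 UPM against 376. Their part in the other differences was not tested. Ribosomal protein genes took 21.2% of the UMIs in the stem-like cells, 15.7% in secretory fibroblasts, 17.6% in myofibroblasts, 18.5% in C2 and 8.96% in C4.

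By the levels of all 5984 genes with at least 20 UMIs in them, the stem-like cells were most like C2 over the 33 other populations, with a Pearson correlation of log2 levels of 0.895. Secretory fibroblasts followed at 0.858, myofibroblasts at 0.830, C4 at 0.741 and endothelial cells at 0.702. The correlations are over genes of populations that share libraries, and 48.4% of the C2 cells came from the cauda and 25.5% from the vas deferens. Within the vas deferens, 1006 of 5833 genes (17.2%) were at least 2-fold higher than in the 39 C2 cells and 105 (1.8%) lower, and the floor of C2 was 24.5 UPM. The minimum of 20 UMIs was a higher level in C2, with fewer UMIs, than in the stem-like cells. The 2 counts therefore had unlike limits. *Cxcl14*, a chemokine, was at 642 UPM against 11398 UPM, 17.7 times (16.2 to 19.5) lower, *Ctla2a*, a protease inhibitor, at 1121 UPM against 10883 (9.71 times), *Penk*, proenkephalin, at 595 UPM against 3276 (5.50 times) and *Apod*, a lipocalin, at 685 UPM against 3276 (4.79 times). *Pdgfrb* was higher in the stem-like cells than in C2, at 633 UPM against 180 UPM, a ratio of 3.52 (2.31 to 5.66), and so was *Eln* (3.80, 2.41 to 6.35).

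Against the 37 cells of C4, 478 of 5833 genes (8.19%) were higher and 88 (1.51%) lower, with a median log2 ratio of -0.59 and a floor of 86.2 UPM in C4. After centring 1041 were higher and 53 lower. The lower genes with the largest ratios were *Rgs5*, *Myh11*, *Acta2*, *Actg2*, *Cnn1*, *Myl9*, *Mylk*, *Tpm2*, *Tagln* and *Cald1*, of which all but *Rgs5*, a pericyte and smooth muscle marker, belong to or regulate the contractile apparatus, at 15.1 to 79.4 times. *Ccl2* was higher in the stem-like cells, at 2988 UPM against 287 UPM, a ratio of 10.4 (5.65 to 21.7), whereas *Pdgfrb* was at 633 and 632 UPM, a ratio of 1.0 (0.66 to 1.61).

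The 32 stem-like cells of the other libraries, with 52883 UMIs in all, differed from those of the vas deferens. *Lgr5* had 0 UMIs in them, in each of the 3 libraries, against 385 UPM in the vas deferens cells, a ratio of 6.79 to the floor of 3 UMIs. *Angpt1* had 2 UMIs (37.8 UPM), 1 each from corpus and cauda, a ratio of 15.0 (4.14 to 124). *Tspan8* had 5 UMIs, all from the cauda, where the level was 247 UPM (80.2 to 577) in 11 cells, and over the 32 cells the ratio was 3.41 (1.45 to 10.6). The cells labelled stem-like outside the vas deferens thus lacked *Lgr5* within what 52883 UMIs can show. Of 5834 genes, 673 (11.5%) were higher in the vas deferens cells and 74 (1.27%) lower. The minimum UMI count for a call was a higher level in the outside cells, with fewer UMIs, than in the vas deferens cells. These counts of higher and lower genes therefore had unlike limits.

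The general fibroblast genes took a like share in both, 4.60% and 4.47%. *Klf4* was at 3895 UPM in both (ratio 1.0, 0.87 to 1.16) and *Scara5* at 296 and 303 UPM. Genes higher outside the vas deferens included *Gpx3*, a secreted glutathione peroxidase, at 1494 UPM against 130 UPM (11.5 times, 8.64 to 15.3), *Igf1*, insulin-like growth factor 1, at 1494 UPM against 198 (7.53 times), *C7* at 1815 UPM against 255 (7.11 times) and *Cxcl12*, a chemokine of many stromal niches, at 1437 UPM against 228 (6.31 times). *Gpx3* was above the vas deferens level in each library, at 3240 UPM (caput, where 1 of 5 cells held all 19 UMIs), 1269 UPM (corpus) and 1285 UPM (cauda). The paper names *Gpx3* as a marker of cauda principal cells. The authors had removed 10.6% (caput), 6.70% (corpus) and 5.80% (cauda) of the UMIs of these cells as ambient RNA. In the vas deferens cells this share was 4.05%. *Akr1b7*, a gene of vas deferens principal cells, was 15.7 times (2.80 to 622) higher in the vas deferens cells, with 1 UMI outside. The part of free RNA in these differences was not tested. Of 12 complement genes 8 were higher outside and none lower. Of all genes, 1.27% were higher outside and 11.5% lower. The minimum UMI count for a call was a higher level outside, so only genes abundant there could be called higher outside. The share of all genes is therefore not a like background for the complement genes, and an enrichment was not tested. By the first round of clustering, in which the submitters grouped all cells, 484 of the vas deferens stem-like cells lay in 1 stromal cluster, whereas in the other libraries 0 of 5 (caput), 9 of 16 (corpus) and 8 of 11 cells (cauda) did. The cluster of most secretory fibroblasts held 2 caput, 5 corpus, 1 cauda and 29 vas deferens stem-like cells. In those 29 *Gpx3*, *C7*, *Igf1* and *Cxcl12* were also higher than in the 484, with *Gpx3* at 1313 UPM against 44.7 and *C7* at 1601 UPM against 160. The part of this mix of clusters in the differences was not tested.

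The markers of the stem-like cells were followed in the myofibroblasts, which have 209 cells in the vas deferens library and 766 outside it. All 3 were also higher in vas deferens myofibroblasts than in those of the epididymis. *Lgr5* was at 164 UPM in the former and at 2.64 UPM (caput, 2 UMIs), 5.34 UPM (corpus) and 6.37 UPM (cauda) in the latter, a ratio of 33.2 (19.5 to 60.2) to the 3 together. *Angpt1* was at 90.4 UPM against 4.65 UPM, a ratio of 19.5 (10.8 to 37.1), and *Tspan8* at 55.9 UPM against 9.29 UPM, a ratio of 6.01 (3.57 to 10.2). For *Lgr5* the step between libraries within myofibroblasts was thus larger than the step of 2.34 between stem-like cells and myofibroblasts of the vas deferens.

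The same held for several of the 16 genes that set the stem-like cells apart among the stroma. Of the 15 that could be tested, 8 (53.3%) were at least 2-fold higher in vas deferens myofibroblasts than in those outside, against 6.32% of all 8968 genes tested, and 1 was lower, against 10.5%. *Coch* was at 87.1 UPM against 3.41 UPM (25.6, 13.2 to 54.3), *Col15a1* at 161 UPM against 8.67 UPM (18.6, 12.1 to 29.4) and *Igfbp4* at 161 UPM against 19.5 UPM (8.25, 5.95 to 11.5). *Prrx2* and *Pdgfrb*, from the comparison with all populations, were at 370 UPM against 26.0 (14.2, 11 to 18.5) and 248 UPM against 35.0 (7.09, 5.52 to 9.13). The exception was *Nupr1*, at 567 UPM against 1200 UPM. Of all 1385 genes higher than in secretory fibroblasts, 1310 could be tested, and 14.4% of them were higher in vas deferens myofibroblasts and 6.11% lower. Of the 551 higher than in myofibroblasts of the same library, 452 could be tested, with 6.86% higher and 26.5% lower, but those genes were chosen for low levels in the vas deferens myofibroblasts. With 1 library per region, a difference between regions and one between libraries cannot be told apart.

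**Figure D3:**
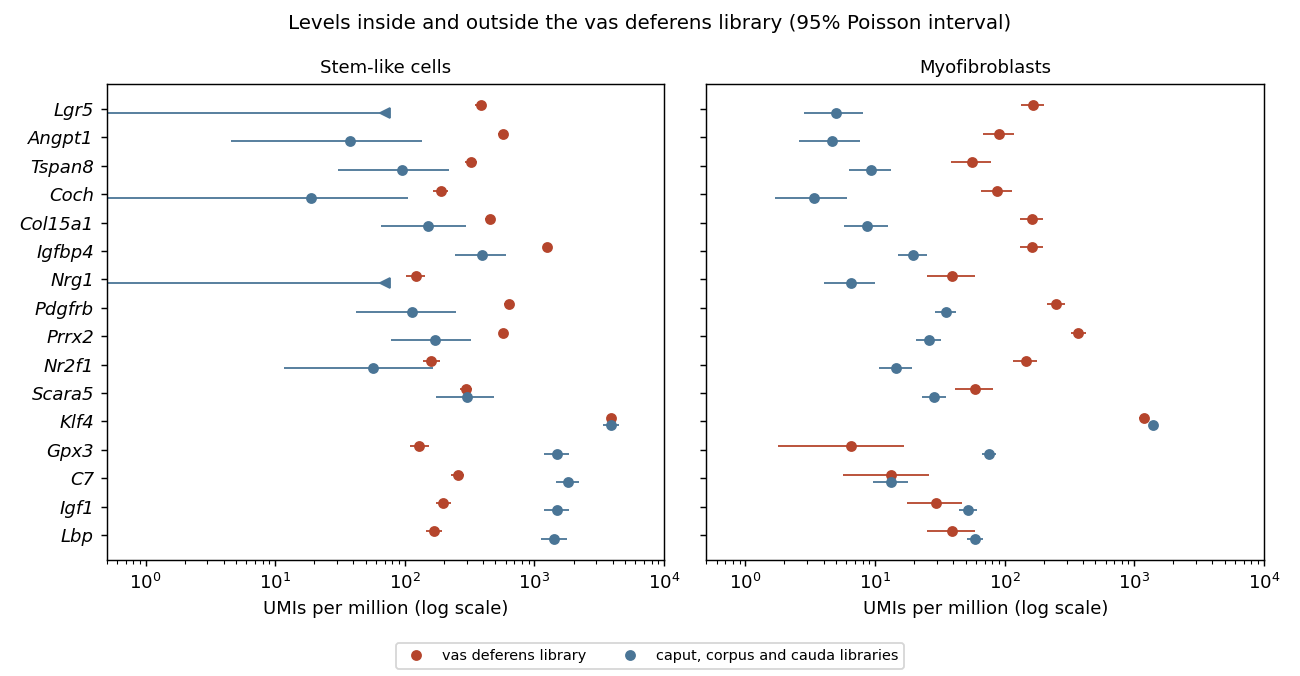
Levels (x axis, UPM, log scale) of 16 genes in stem-like cells (left) and myofibroblasts (right) of the vas deferens library (red) and of the caput, corpus and cauda libraries together (blue), with 95% Poisson intervals and an arrow head at the upper limit where the count was 0. For the genes from *Lgr5* to *Nr2f1* the red points lie right of the blue ones in both panels, and for *Gpx3* left in both.

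Within the 404 stem-like cells thinned to 1000 UMIs, genes other than the markers had the largest ratios of variance to mean. Over 1433 genes with a thinned mean of at least 0.1, the median ratio of variance to mean was 1.14. *Lgr5* ranked 295th at 1.44, *Angpt1* 157th at 1.71 and *Tspan8* 51st at 2.65. This ratio tends to rise with the mean, and the thinned mean was 0.42 for *Lgr5* against 29.3 for *Gsn*. The ranks therefore cannot compare how unevenly genes of such different levels were spread. The 15 largest ratios ran from 5.49 to 19.8. They belonged to genes of 2 kinds, those in nearly all cells and those in few.

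*Gsn* was in every cell, from 1 to 108 UMIs with a median of 24.5, *Dcn* in 94.3% with a median of 6 and a highest value of 80, *Apoe* in 95.8% with a median of 11 and a highest value of 68, and *Mt1*, a metallothionein, in 97.5% with a median of 14. In contrast *Ctla2a*, first in rank, was in 12.6% of the cells, with up to 46 UMIs. *Cxcl14* was in 14.9% of the cells, with up to 29 UMIs. *Ccl2* and *Ccl7* were between, in 41.1% and 40.3% of the cells, with up to 35 and 26 UMIs. *Cryab*, *Crisp1* and *Akr1b7* were each in under 7% of the cells, and of these *Crisp1* and *Akr1b7* are genes of the duct's epithelium. The highest count of *Cryab*, 28 UMIs, came from 1 cell. The others among the 15 were *Apod*, *Fos*, *Actb* and *Cxcl1*. Of the 15, 13 remained at 500 UMIs a cell, 13 at 2000 and 14 with another random seed.

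Some of these genes varied together over the 404 cells, which share 1 library and 1 depth. Spearman's rho was 0.656 for *Gsn* and *Dcn* and 0.469 for *Ccl2* and *Ccl7*, as descriptions of these cells.

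**Figure D4:**
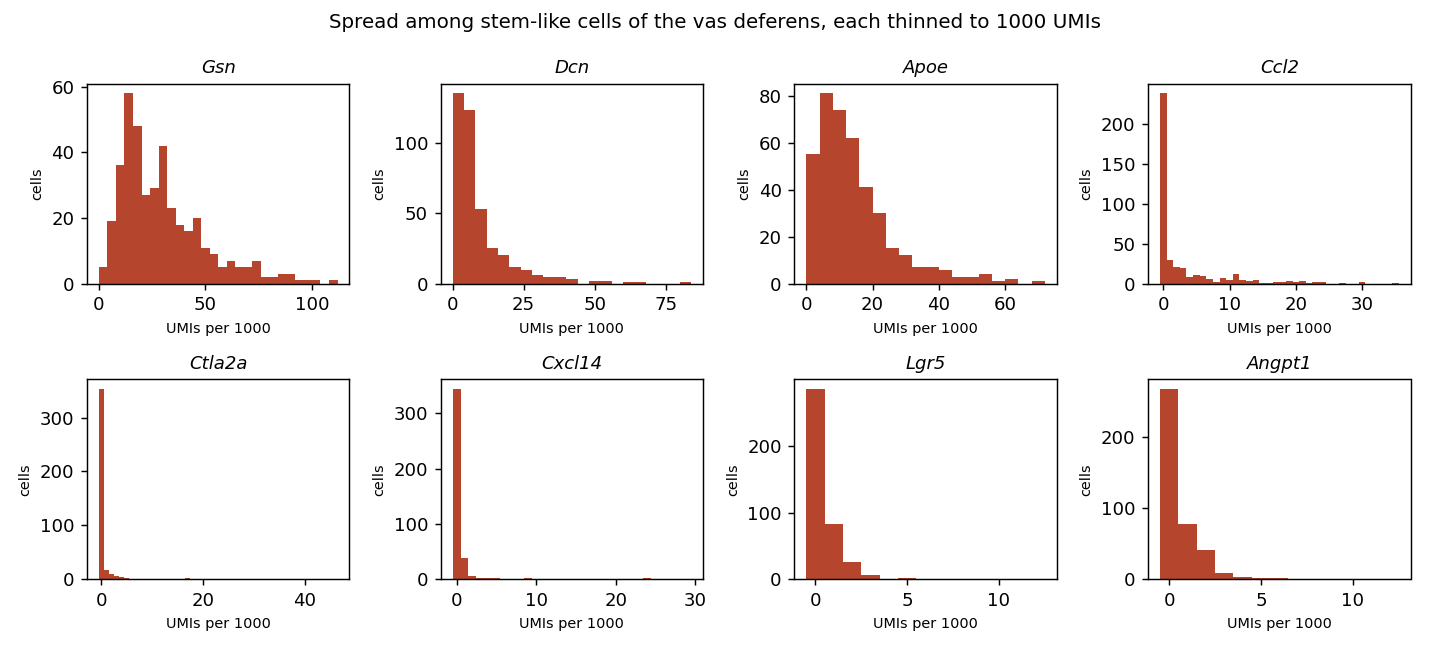
Number of stem-like cells (y axis) by UMIs of a gene among 1000 UMIs (x axis), for 8 genes in the 404 vas deferens cells with at least 1000 UMIs. *Gsn* is spread from 1 to 108 UMIs with no cell at 0, whereas *Ctla2a* and *Cxcl14* are at 0 in 353 and 344 cells with long tails to 46 and 29, and *Lgr5* and *Angpt1* do not pass 5 and 6.

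A small group of stem-like cells stood apart by the first round of clustering. While 484 cells were in the main stromal cluster of the vas deferens, 29 were in another that held 210 of the 213 secretory fibroblasts, and the median depths were 2012 UMIs for the 484 and 2268 UMIs for the 29. In those 29 cells *Lgr5* was at 68.4 UPM (5 UMIs), against 411 UPM in the 484, and *Angpt1* also at 68.4 UPM (5 UMIs), against 609 UPM, whereas *Tspan8* was at 274 UPM against 327. *Lef1*, *Coch* and *Hhip* had 0 UMIs in the 29 cells, against 92, 204 and 184 in the 484, and *Sfrp2* was at 123 UPM against 772.

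Other genes ran the opposite way. *Ctla2a* was at 11013 UPM in the 29 cells against 411 UPM, *Dcn* at 29823 UPM against 8065, *C7* at 1601 UPM against 160, *Gpx3* at 1313 UPM against 44.7 and *Il6* at 1874 UPM against 365, while *Tslp* had 0 UMIs among the 29 and *Ptx3* was at 670 UPM against 50.7. The 29 cells held 90 of the 116 UMIs of *Sult1e1* and 805 of the 1220 of *Ctla2a*, so the levels of these genes in the population as a whole rested on them. As the clusters were drawn from these same genes, the values describe the groups and do not test them. The comparisons with secretory fibroblasts and myofibroblasts kept within 1.5 times their counts without the 29 cells, an alternative chosen after seeing the data.

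Ligands and receptors were read against the other cells of the vas deferens, in counts of 3′ UMIs that are not scaled by length, so the levels of different genes are not compared. *Angpt1* was at 568 UPM in the stem-like cells and at 0 in endothelial cells, whereas its receptor *Tek* was at 167 UPM in endothelial cells and had 1 UMI in the stem-like cells. *Vegfa*, the growth factor of vessels, was at 244 UPM and its receptor *Kdr* at 328 UPM in endothelial cells against 11.9 in the stem-like cells. In the reverse direction *Pdgfb* was at 46.2 UPM (21 UMIs) in endothelial cells and 0 in the stem-like cells, which had its receptor *Pdgfrb* at 633 UPM. *Pdgfa* was at 277 UPM in endothelial and 220 UPM in basal cells, and *Pdgfra* at 186 UPM in the stem-like cells. In each of these 4 pairs the ligand was higher on the one side and the receptor on the other. Other pairs had both RNAs in many of the stem-like cells themselves. Without thinning, *Gas6* was in 30.4% of them and its receptor *Axl* in 34.2%, and *Tgfb2* in 23.4% and its receptor *Tgfbr3* in 36.6%.

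For *Lgr5*, the ligand *Rspo3* was highest in secretory fibroblasts at 682 UPM and was at 205 UPM in muscle cells, *Rspo1* was at 25.9 UPM (17 UMIs) in secretory fibroblasts and 6.43 UPM in the stem-like cells, and *Rspo2* was at 29.3 UPM (37 UMIs) in muscle cells and 0 in the stem-like cells. *Ccr2*, the receptor of Ccl2, had 10 UMIs each in T cells (255 UPM) and macrophages (45.9 UPM) and 0 in the stem-like cells. *Bmp2*, a bone morphogenetic protein, was at 306 UPM in the stem-like cells, and its receptor *Bmpr1a* was highest in muscle cells at 235 UPM. *Fgf7*, known for acting from stroma on epithelium, was at 129 UPM, with its receptor *Fgfr2* at 124 UPM in muscle and 108 UPM in basal cells. Basal cells had *Adm*, adrenomedullin, at 1562 UPM, and the stem-like cells its receptor *Calcrl* at 226.1 UPM. These levels show that both RNAs of a pair were present, and nothing about binding or signalling was measured.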

How the data were processed

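The data are 4 single-cell libraries, 1 per segment. Per the study's methods, the authors extracted barcodes, aligned reads to mm10 with HISAT2 2.0.4, counted UMIs on RefSeq genes with ESAT, ignoring multi-mapping reads (near-identical genes may lose counts), merged UMIs differing at 1 base, filtered cells by total UMIs and removed ambient RNA with a modified SoupX. The deposited values are whole UMI counts of 16892 genes. A deposited table lists population, first-round cluster and the size factor, a linear score, by cell. Here, UMIs were summed per population and library. Levels have exact Poisson, ratios exact conditional binomial and shares Clopper-Pearson intervals at 95%. A gene was called at 2-fold and 20 UMIs, with 0 raised to 3 UMIs. Named genes were the markers, members of fixed lists, the 10 largest ratios each way among genes with 50 UMIs, the 15 most variable genes, and ligand-receptor pairs with either gene in 20% of stem-like cells. Doublets were ranked by simulation with scanpy 1.11.5 at an assumed 0.8% per 1000 cells (178 cells, 2.00%) and kept. The rules were tested on simulated data. Members and lists were chosen with earlier results of these data known. Python 3.11.15, numpy 2.4.6, scipy 1.17.1 and pandas 2.3.3 were used. Promoters are from RefSeq tables.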

Additional observations from a re-analysis of the deposited data

How the results depend on the processing

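No paired analysis was possible because each segment is 1 library, pooled from the same 4 mice, so no spread within a segment or between pairs can be estimated. Of 178 values under alternatives, 107 stayed within 1.5 times or within their interval and 71 moved. Counts are higher then lower. At a 4-fold threshold they were 373 and 135 against secretory fibroblasts, 157 and 177 against myofibroblasts, 164 and 18 against C2, 71 and 43 against C4, and 94 and 25 against stem-like cells outside the vas deferens. At 4-fold, 2 genes stood above each other stromal population and 11 above all others. At 1.5-fold these were 2487 and 689, 1080 and 1372, 1684 and 208, 858 higher for C4, 1266 and 127, then 69 and 70. With 10 UMIs, 2169 were higher than in secretory fibroblasts, 844 and 1052 against myofibroblasts, and 194 lower than in C2, 2.3e+02 (rounded) lower than in C4 and 163 lower than in the outside cells. With 50 UMIs the counts were 597 and 2.3e+02 (rounded), 289 and 342, 441 and 52, then 27 and 26 lower for C4 and the outside cells. Cells of at least 1000 UMIs gave 275 and 43 against C4 and 9 genes above all stroma. Size factors gave 1348 higher than C4, 38 above all stroma and 1063 higher than outside, with *Lgr5* at 451 UPM and *Angpt1* at 648. Means of single cells gave 1000, 28 and 1202. Centring gave 796 and 682 against secretory fibroblasts and 1041 and 53 against C4. All 4 libraries gave 1483 lower than in myofibroblasts, 313 lower than in C2, 894 and 883 against C4 and 135 above all stroma. Chosen after seeing the data, leaving out C4 gave 77, no floor 76, and thinning both populations to 1000 UMIs 667 and 209 against secretory fibroblasts and 318 lower than in myofibroblasts. Without ribosomal genes in the totals the markers were at 489, 721 and 409 UPM. Shares of cells with *Lgr5*, *Angpt1* and *Tspan8* were 18.6%, 21.2% and 11.1% at 500 UMIs and 43.7%, 50.5% and 26.5% unthinned. All 40 genes named in the secretory and myofibroblast comparisons stayed past 2-fold in 6 of 6 settings of scaling and cells, though the size of many ratios moved. Depth limits what can be said of C4 and of the 32 outside cells, and the intervals do not cover differences between animals or dissociations.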

Other observations

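Among groups not followed above, growth factor genes were read as a further list. Of 16 genes of the FGF, HGF, EGF and PDGF families tested against myofibroblasts, 6 were higher in the stem-like cells, among them *Egfr* and *Areg*, and 1 lower (9.1% and 11% of all genes), and against secretory fibroblasts 6 were higher and 4 lower (23.2% and 6.35% of all genes). *Hgf*, hepatocyte growth factor, was at 36.8 UPM in the stem-like cells against 6.10 UPM (4 UMIs) in secretory fibroblasts, and *Fgf10* at 36.8 UPM against 94.6 UPM. Of 29 genes of the BMP and TGF-beta pathways tested against secretory fibroblasts, 8 were higher and 5 lower, against the same shares of all genes, with a median log2 ratio of 0.63 against 0.41. *Id1*, a target of BMP signalling, was at 292 UPM against 59.5 UPM and *Id4* at 143 UPM against 25.9 UPM, and in myofibroblasts they were at 419 and 366 UPM, the latter more than 2-fold above the stem-like level. Of 7 Notch and hedgehog genes 4 were higher than in secretory fibroblasts, *Notch1*, *Notch2*, *Jag1* and *Hhip*, and *Boc* was lower (23.2% and 6.35% of all genes). Against myofibroblasts 0 of 9 were higher and 3 lower, *Notch3*, *Hey1* and *Hhip* (9.1% and 11% of all genes). *Hhip* was higher in the 32 stem-like cells outside the vas deferens, at 548 UPM (367 to 788), 23 of its 29 UMIs there being from the corpus, than in those within it (169 UPM, 146 to 195).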
